A study of Mus musculus with 14 samples.

Results

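Narrow active promoters were taken here as the H3K4me3 peaks of Cas9 tumour cells that measured under 1000 bp, shared at least 1 bp with an H3K27ac peak of the same cells and met no H3K27me3 island of those cells. Of 14363 H3K4me3 peaks called in Cas9 tumour cells, 4759 met the rule. The steps left 11646 peaks under 1000 bp and 4819 of them with H3K27ac, from which 60 were removed for H3K27me3. The width, the H3K27ac call and the missing H3K27me3 call in Cas9 cells therefore chose the members, and these values are given as a description only. The word promoter rests on H3K4me3 alone, because a gene annotation of build mm9 was not used here and the genes at the members were not analysed here.

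The study profiled 14 libraries of mouse cells by ChIP-seq, which sequences the DNA that an antibody against a histone mark or a protein brings down. Ezh2 knockout tumour cells (p53-/-;p18-/- ;Ezh2-/-) were set against tumour cells labelled Cas9 (p53-/-;p18-/-), each with 3 histone marks and an input. Neurospheres (p53-/-;p18-/-) were profiled with a Cas9 antibody in cultures labelled Suz12F2, Suz12F1 and U6, and with a Gfi1 antibody in cultures labelled Suz12F2 and Cas9. Each group had 1 library. All groups thus shared the loss of p53 and p18, and the series' design text places the tumour cells on a Myc-overexpressing background. Per the labels, tumorspheres of Group 3 medulloblastoma (G3 MB) received retroviral vectors, were sorted as RFP+/GFP+ cells, grown in culture and transplanted into the cortex of CD-1 nu/nu mice. The labels do not say whether the chromatin came from before or after transplantation, whether the knockout is 1 clone, or what U6, F1 and F2 stand for.

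H3K4me3 is laid down around the start sites of transcribed genes, and H3K27ac is added by acetyltransferases at promoters and enhancers in use. Ezh2 is the enzyme of Polycomb repressive complex 2 (PRC2), which methylates the same lysine 27 and so competes with acetylation, and Suz12 is a core subunit of that complex. Gfi1 is a zinc finger repressor of transcription that is known as a driver of Group 3 medulloblastoma. The narrow active promoters had no H3K27me3 called in Cas9 cells, and the comparison describes how their active marks stood in cells without Ezh2.

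No test across samples could be run on single libraries, and read depth is unknown because library totals are not part of the lists. Intervals are 95% intervals, Wilson for shares and order statistics for medians, and they cover counting error over peaks, not the variation between cultures. In these bulk samples, fewer cells with a mark and less of the mark per cell cannot be told apart. The knockout held 14417 H3K4me3 peaks and 10112 H3K27ac peaks, against 14363 and 7951 in Cas9 cells. Its H3K4me3 peaks had a median width of 516 bp, against 601 bp in Cas9 cells. H3K27me3 islands, which are runs of enriched windows, covered 18.6 Mb in the knockout and 71.4 Mb in Cas9 cells. All positions are in build mm9.

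In Cas9 cells the members had a median H3K4me3 width of 664 bp (656 to 671), with the middle 50% between 498 and 814 bp and a range of 180 to 999 bp. The authors gave each peak a score of unstated meaning, used here only to rank peaks within 1 list, as a percentile from 0 to 100 with 100 the highest. By this rank the members stood above the middle of the H3K4me3 list, at a median percentile of 64.5 (64.5 to 66.5). Active peaks of 1000 bp or more without H3K27me3, called broad active below (2229 peaks), had a median percentile of 85.7. Peaks under 1000 bp with neither H3K27ac nor H3K27me3 (5313 peaks) had a median percentile of 26.4. Score and width were related over the 4759 members (Spearman's rho 0.569), both being read from the same peak in 1 library.

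The H3K27ac peak lay inside most members rather than around them. Exactly 1 H3K27ac peak overlapped 97.9% of the members, its median width was 357 bp (351 to 364), and it covered a median of 58.9% of the member. Its centre lay a median of 73.5 bp from the centre of the member, and 23.0% of the members had an H3K27ac peak that reached past an edge. The H3K27ac peaks of the members had a median percentile of 49.0 in their own list, against 69.1 for those of broad active peaks. The ranks of both marks were loosely related over the 4759 members (rho 0.325).

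The limit of 1000 bp cuts through a continuous range of widths. The 3 widest members each measured 999 bp. They stood at percentiles 94.8 (chr15:5093400-5094398), 85.7 (chr16:84835397-84836395) and 70.3 (chr7:25292030-25293028), and their knockout widths were 1067, 1118 and 997 bp. The 3 peaks just outside measured 1000, 1000 and 1001 bp. They stood at percentiles 70.3 (chr4:49644633-49645632), 68.4 (chr7:118172061-118173060) and 91.1 (chr7:117103201-117104201), and their knockout widths were 892, 831 and 727 bp.

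Most narrow active promoters carried both marks in Ezh2 knockout cells as well. H3K4me3 was called in the knockout over 4554 of the 4759 members, or 95.7% (95.1 to 96.2), against 85.4% of all Cas9 H3K4me3 peaks. H3K27ac was called over 4366 members, or 91.7% (90.9 to 92.5), against 60.8% of all Cas9 H3K4me3 peaks. Both marks were called over 4233 members, or 88.9% (88.0 to 89.8), against 59.1% of all peaks. The whole list includes peaks that had no H3K27ac in Cas9 cells, so broad active peaks, which had it, are the nearer comparison.

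With 1 shared bp, broad active peaks carried both marks in the knockout more often than the members did, but the order depended on how overlap was counted. H3K4me3 was called over 2228 of the 2229 broad active peaks and H3K27ac over 98.2% (97.6 to 98.7). Counted by the midpoint of the peak, H3K4me3 was called over 92.4% (91.6 to 93.1) of the members and 96.4% (95.5 to 97.1) of broad active peaks. This count still depends on width, since an H3K27ac peak can miss the centre of a wide H3K4me3 peak that it overlaps. The share of each class with Cas9 H3K27ac over its midpoint is not given here. H3K27ac lay over the midpoint of 81.7% (80.5 to 82.7) of the members and 79.2% (77.4 to 80.8) of broad active peaks, and both marks over 77.6% (76.4 to 78.7) and 78.6% (76.9 to 80.3), so that the intervals overlap for H3K27ac and for both marks. Among narrow peaks without H3K27ac, H3K4me3 was called in the knockout over 68.6% (67.3 to 69.8). H3K27ac appeared in the knockout over 24.4% (23.2 to 25.5) of that last class, which had none in Cas9 cells by its definition. The knockout H3K27ac list was also longer than the Cas9 list: when trimmed by score to the same 7951 peaks, it overlapped 83.2% of the members (82.1 to 84.2).

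The same rule applied to the knockout gave 7192 narrow active peaks, a larger set. H3K4me3 was called in Cas9 cells over 97.4% (97.0 to 97.7) of them, against 90.2% of all knockout H3K4me3 peaks. H3K27ac was called in Cas9 cells over 73.8% (72.7 to 74.8), against 50% of all knockout peaks, and both marks over 73.3% (72.3 to 74.3), against 49.7%. Narrow active peaks of the knockout thus had H3K27ac in Cas9 cells less often than those of Cas9 cells had it in the knockout, and the part of the longer knockout H3K27ac list in this gap was not tested beyond the trimming above.

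The share with both marks followed the Cas9 rank of H3K4me3, among the members as over the whole list. From the lowest to the highest quintile of scores in the whole Cas9 H3K4me3 list, both marks were called in the knockout over 43.1%, 76.0%, 89.1%, 94.6% and 97.8% of the members. By the midpoint the shares were 32.8%, 59.4%, 74.8%, 84.4% and 89.9%, in the same order. Over all Cas9 H3K4me3 peaks the midpoint shares were 8.06%, 27.8%, 52.9%, 72.6% and 84.6%. The rise is therefore not particular to the members. For H3K4me3 by itself the step was at the bottom of the list, with 54.4% (48.5 to 60.2) in the lowest quintile and 87.6% (84.6 to 90.0) in the next. By the midpoint these were 44.2% and 77.4% of the members, against 38.3% and 73.5% of all Cas9 H3K4me3 peaks. In the upper 3 quintiles H3K4me3 was called over 1147 of 1155, 1467 of 1467 and 1291 of 1292 members. H3K27ac was called over 70.4% (64.8 to 75.5) of the members in the lowest quintile and 97.9% (97.0 to 98.6) in the highest.

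At matched rank, and with 1 shared bp, the shares of the members lay between those of the other classes. In the middle quintile both marks were called over 89.1% (87.2 to 90.8) of 1155 members and 94.4% (90.0 to 96.9) of 178 broad active peaks, and these intervals overlap. In the highest quintile the shares were 97.8% (96.9 to 98.5) of 1292 members and 99.4% (98.9 to 99.7) of 1416 broad active peaks, and the intervals do not overlap. For narrow peaks without H3K27ac the share in the highest quintile was 58.2% (49.7 to 66.2) of 134 peaks. By the midpoint the members stood above broad active peaks instead. Both marks lay over the midpoint of 74.8% (72.2 to 77.2) of the members and 56.2% (48.8 to 63.3) of broad active peaks in the middle quintile, and of 89.9% (88.1 to 91.4) and 85.2% (83.3 to 87) in the highest, with no overlap of intervals. The order of members and broad active peaks at matched rank thus turned with the way of counting. The part of peak width in this turn was not tested. With 1 shared bp, in the second quintile H3K4me3 was called over 87.6% (84.6 to 90.0) of the members and 77.4% (75.2 to 79.4) of narrow peaks without H3K27ac.

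**Figure D1:**
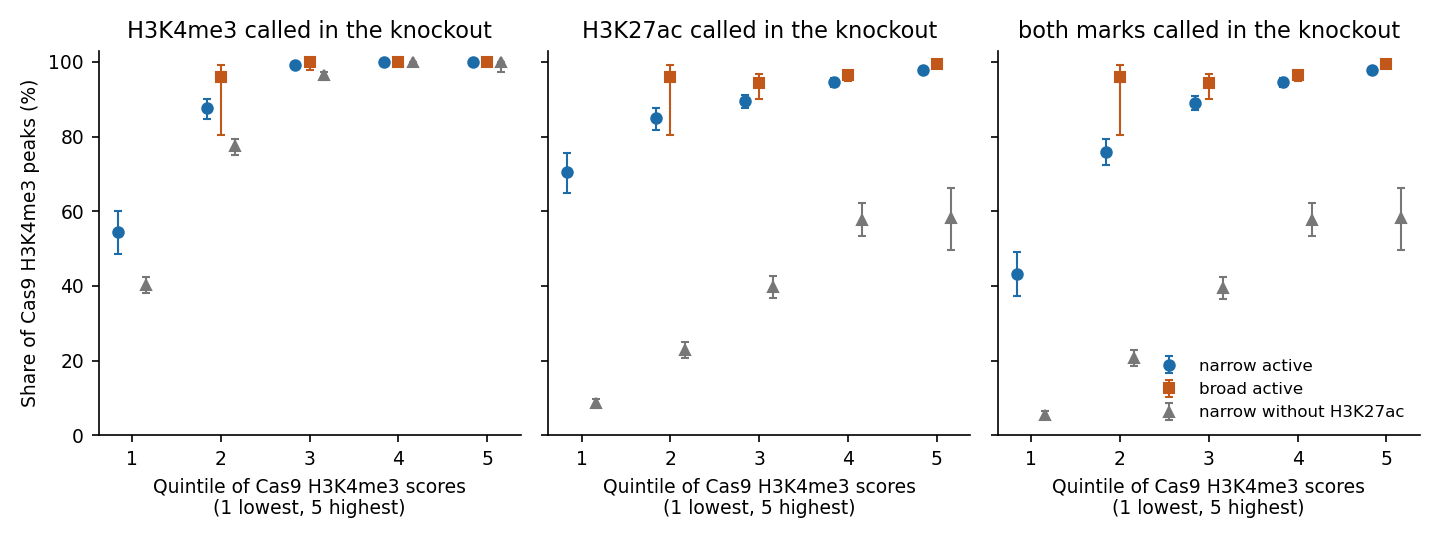
Share of Cas9 H3K4me3 peaks (%) over which H3K4me3, H3K27ac or both were called in the Ezh2 knockout, counted by 1 shared bp, by quintile of the Cas9 H3K4me3 score, for narrow active, broad active and narrow peaks without H3K27ac; points are shares and bars Wilson 95% intervals for counting error. For the members the share with both marks runs from 43.1% in the lowest quintile to 97.8% in the highest; broad active peaks have no point in the lowest quintile, and their place above the members turns when the midpoint is counted.

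With 1 shared bp, width gave the same order within the members. Both marks were called over 66.3% (62.6 to 69.8) of the members under 400 bp, 87.4% (85.4 to 89.2) of those from 400 to under 600 bp, 93.0% (91.7 to 94.2) of those from 600 to under 800 bp and 96.9% (95.8 to 97.7) of those from 800 to under 1000 bp. H3K4me3 was called over 76.5% (73.1 to 79.6) of the members under 400 bp and over 99.8% of the widest class. Across the 4 width classes H3K27ac was called over 82.2% to 97.1%. By the midpoint both marks were called over 61.4% (57.6 to 65) of the members under 400 bp, 80% (77.6 to 82.2) of those from 400 to under 600 bp, 79.8% (77.7 to 81.6) of those from 600 to under 800 bp and 81% (78.8 to 83.1) of the widest class. The intervals of the upper 3 classes overlap, so that the order above 400 bp was not seen by the midpoint.

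The members that did not carry both marks fell into groups with different ranks. In the knockout 321 members (6.75%, against 26.4% of all Cas9 H3K4me3 peaks) had H3K4me3 alone and 133 (2.79%, against 1.72%) had H3K27ac alone. Neither mark was called over 72 members (1.51%, against 12.8% of all peaks). Members with H3K4me3 alone had a median H3K4me3 percentile of 51.1 in Cas9 cells, but their H3K27ac peaks stood at 16.0. Members with H3K27ac alone showed the reverse, with a median of 20 for H3K4me3 and 40.0 for H3K27ac. Both medians were low, 16.2 and 10.9, where neither mark was called, and higher, 66.5 and 52.3, where both were. A mark was thus missing in the knockout mainly where its own Cas9 peak ranked low.

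**Figure D2:**
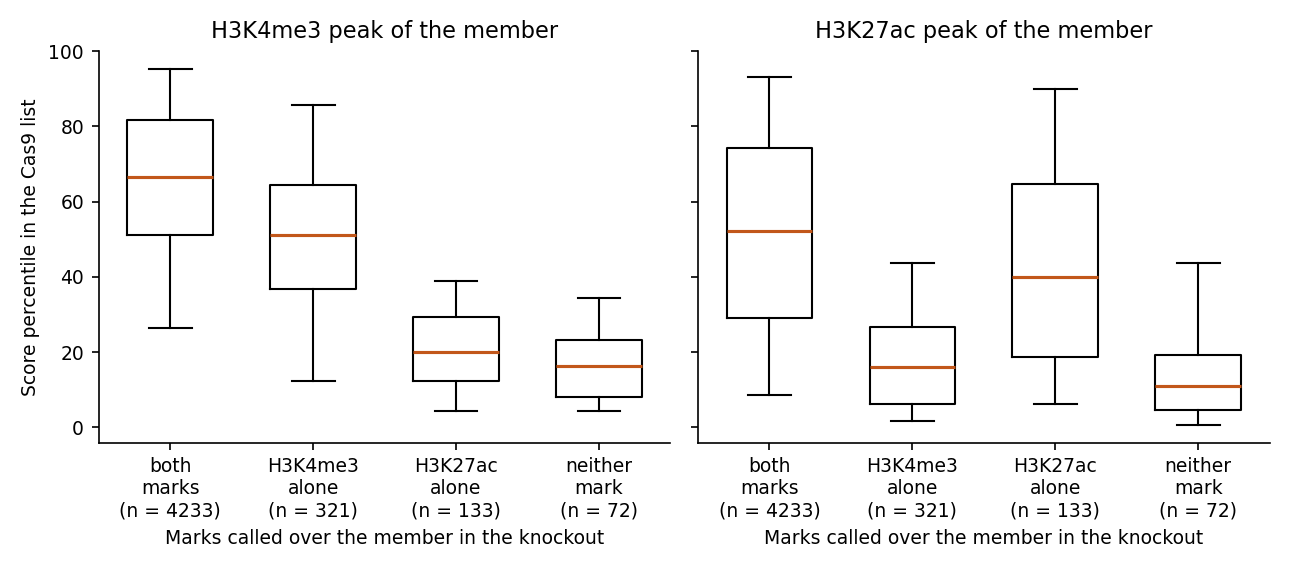
Score percentile of the member's H3K4me3 peak (left) and H3K27ac peak (right) in the Cas9 lists, by the marks called over it in the knockout; the line is the median, the box the middle 50% and the whiskers the range without the lowest and highest 5% over members. Each mark ranks low in Cas9 cells where it is missing in the knockout, at medians of 16.0 for H3K27ac in the 321 members with H3K4me3 alone and 20 for H3K4me3 in the 133 with H3K27ac alone.

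Many missing H3K4me3 calls of the members lay close to a knockout peak. The gap shares that follow describe the members alone, because those over all Cas9 H3K4me3 peaks are not given here. Of the 205 members with no H3K4me3 in the knockout, 114 (55.6%, 48.8 to 62.2) had a knockout H3K4me3 peak within 500 bp, and 62 (30.2%) had none within 10 kb. Their median width was 282 bp, and 71.7% had another Cas9 H3K4me3 peak within 2 kb, against 41.9% of all members. Of the 393 members with no H3K27ac in the knockout, 121 (30.8%) had a knockout H3K27ac peak within 500 bp and 212 (53.9%) had none within 10 kb. The knockout lists lacked 467 numbered H3K4me3 peaks and 363 numbered H3K27ac peaks. Whether any of these lay over members counted as without a mark is not known.

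Many members had a close neighbour, and so did many broad active peaks (721 of 2229 with another Cas9 H3K4me3 peak within 2 kb). The shares over all Cas9 H3K4me3 peaks are not given here, so close neighbours are not read as a trait of the members. Another Cas9 H3K4me3 peak lay within 2 kb of 1993 members (41.9%), at a median gap of 161 bp, and for 807 of them (40.5%) the nearest neighbour was also a member. Such pairs are not independent, and 269 of the 1993 members (13.5%) shared 1 knockout H3K4me3 peak with their nearest neighbour. Both marks were called in the knockout over 83.7% (82.0 to 85.2) of the members with such a neighbour and 92.7% (91.7 to 93.6) of the 2766 without. The members with a neighbour also ranked lower, at a median percentile of 56.7 against 68.4, and the part of rank in this difference was not tested.

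Single members show the range. The member with the highest score (chr17:26852574-26853256) measured 693 bp in the knockout and 683 bp in Cas9 cells, and its H3K27ac peak measured 483 and 538 bp. The next 4 by score were chr4:134408358-134409315, chr11:49525353-49526248, chr1:93146842-93147687 and chr17:56357634-56358305. Their H3K4me3 widths were 915, 899, 718 and 722 bp in the knockout, against 958, 896, 846 and 672 bp in Cas9 cells, and both marks were called in the knockout over all 5.

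The highest-ranked member without H3K4me3 in the knockout (chr14:120877604-120878436) stood well apart from the other 204. It measured 833 bp at percentile 81.7 in Cas9 cells, and the nearest knockout H3K4me3 peak in the list lay 200755 bp away. Whether a numbered knockout peak that was not analysed here lay over it is not known. H3K27ac was called there in both, over 713 bp in the knockout and 181 bp in Cas9 cells. The next 4 by score stood at percentiles 49.3 (chr12:82585683-82586116), 45.3 (chr4:131829728-131830278), 43.3 (chr9:115219734-115220061) and 43.3 (chrX:70587966-70588686). H3K27ac was called in the knockout over the first 3 of these and not over the last. At the chromosome 4 and chromosome 9 members a knockout H3K4me3 peak lay 43 and 139 bp away.

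Among members with H3K4me3 but no H3K27ac in the knockout, chr10:79727762-79728630 had the highest H3K4me3 score. Its H3K4me3 measured 649 bp in the knockout and 869 bp in Cas9 cells, where its H3K27ac peak stood at percentile 68.1. The nearest knockout H3K27ac peak lay 26558 bp away. For the next 4 (chr19:4148570-4149139, chr5:125002864-125003602, chr2:32462488-32463286 and chr4:129219179-129219978) the Cas9 H3K27ac peak stood at percentiles 16.0, 43.6, 10.9 and 10.9. The nearest knockout H3K27ac peak lay between 11351 and 71058 bp from them.

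H3K27me3 was almost never called over the members in the knockout. An island overlapped 10 of the 4759 members, or 0.210% (0.114 to 0.386), against 1.56% of all Cas9 H3K4me3 peaks, and the members had been chosen to have none in Cas9 cells. Among the 2766 members with no other H3K4me3 peak within 2 kb it was 2, or 0.0723% (0.0198 to 0.263). With the roles of the cells exchanged, 7.98% (7.38 to 8.63) of the 7192 narrow active peaks of the knockout lay under an H3K27me3 island of Cas9 cells, against 15.7% of all knockout H3K4me3 peaks. The knockout islands covered far less of the genome, which bears on both shares. Of these 10, picked after their values were seen, chr11:94538000-94538841 had the highest score and carried H3K4me3 over 893 bp and H3K27ac over 500 bp in the knockout.

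The members nearest to an H3K27me3 island in Cas9 cells differed little from the farthest ones. The median distance of a member from the nearest Cas9 island was 81483 bp. Both marks were called in the knockout over 91.6% (87.9 to 94.3) of the 287 members within 5 kb of an island and over 88.6% (87.2 to 89.9) of the 2121 members at 100 kb or more, and the intervals overlap. The median H3K4me3 width change was -61 bp in both of these distance classes, against -68 bp over all members with a partner. The classes between 5 and 100 kb are not described here.

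H3K4me3 peaks over the members were narrower in the knockout. Width was compared over the 4062 members (85.4%) that met exactly 1 knockout H3K4me3 peak which met no other Cas9 peak. Their median width was 582 bp (572 to 590) in the knockout and 672 bp (664 to 681) in Cas9 cells. The median change per member, knockout minus Cas9, was -68 bp (-72 to -62), with the middle 50% between -154 and 12 bp. The peak was narrower in the knockout over 2914 members, or 71.7% (70.3 to 73.1), and wider over 1136, or 28.0%, against 68.5% and 31.1% of all Cas9 H3K4me3 peaks with such a partner. The shares of the members lay near these background values.

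Because the rule used the Cas9 width, the change is a description. Where members were chosen by the same rule in the knockout instead, the median change was -77 bp (-81 to -73) over 5769 peaks, and 72.4% (71.3 to 73.6) were narrower in the knockout. The sign was the same, but a limit of 1000 bp on the knockout width itself favours peaks that are narrower in the knockout. A limit on the Cas9 width favours the other direction. The exchanged rule is therefore not a check of the direction. Median change over all 10175 Cas9 H3K4me3 peaks with a partner, where no width limit was set, was -65 bp (-68 to -61), so the members moved with the whole list.

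**Figure D3:**
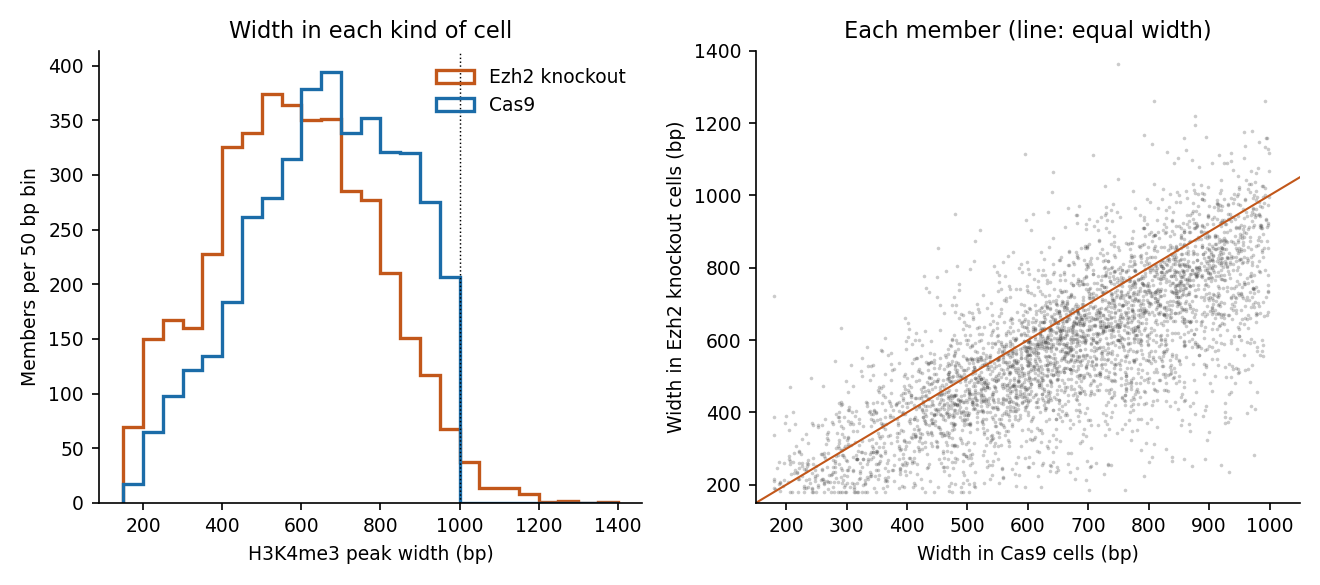
H3K4me3 peak width (bp) of the 4062 members with a single partner, as histograms in 50 bp bins for Ezh2 knockout and Cas9 cells (left, dotted line at the limit of 1000 bp) and member by member (right, line of equal width). Knockout widths centre on 582 bp against 672 bp in Cas9 cells, and most points lie under the line.

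Over the members as a set, both edges moved inward a little. The median was 28 bp for each edge, taken over the left and the right edges separately, and the centre shifted by a median of 42.5 bp in either direction. The knockout peak lay wholly within the Cas9 peak at 45.2% of the members, and the reverse held at 10.8%. At the remaining members an edge lay inside and the other edge outside the Cas9 peak. The edge values over all Cas9 H3K4me3 peaks are not given here. The change stayed within 100 bp at 51.9% of the members, and 77 of the 4062 (1.90%) reached 1000 bp or more in the knockout.

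Wider members lost more width. Median changes were -4.5 bp (-21 to 7) under 400 bp, -48 bp (-56 to -40) from 400 to under 600 bp, -76 bp (-86 to -69) from 600 to under 800 bp and -107 bp (-116 to -100) from 800 to under 1000 bp. Broad active peaks had a median change of -138 bp (-148 to -126) and were narrower in the knockout in 82.0% of cases. The classes were cut on the Cas9 width itself, so nothing is read from their order.

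Members lost less width than narrow peaks without H3K27ac within a width class, but not over all peaks or at matched rank. Over all peaks with a partner the median change was -68 bp (-72 to -62) for the members and -55 bp (-61 to -49) without H3K27ac. From 800 to under 1000 bp the median change was -107 bp (-116 to -100) over 1123 members and -184 bp (-214 to -153) over 241 peaks without H3K27ac. From 600 to under 800 bp it was -76 bp (-86 to -69) over the members and -130 bp (-142 to -114) without H3K27ac, and from 400 to under 600 bp it was -48 bp (-56 to -40) and -72 bp (-80 to -65). The intervals do not overlap in these 3 classes, and they overlap under 400 bp. The members also ranked higher at the same width, with a median percentile of 78.6 against 56.7 from 800 to under 1000 bp. In the 5 score quintiles, from low to high, the median change of the members was -45 bp (-63 to -3), -69 bp (-94 to -45), -75.5 bp (-87 to -66), -74.5 bp (-84 to -65) and -57 bp (-65 to -49). Without H3K27ac it was -7 bp (-20 to 0), -66 bp (-74 to -56), -69 bp (-81 to -57), -70 bp (-87 to -56) and -69 bp (-98 to -24). The intervals of both classes overlap in each quintile.

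**Figure D4:**
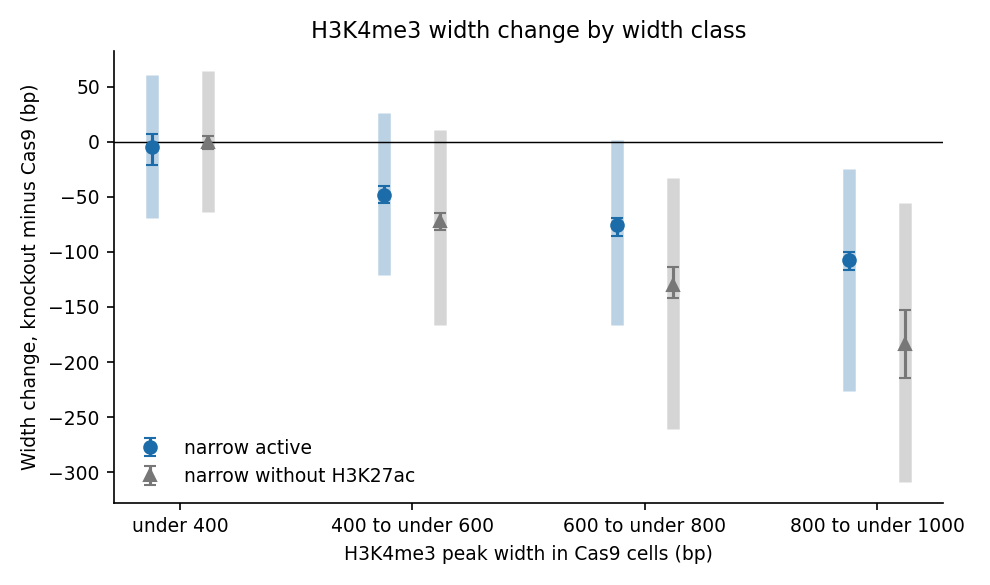
Change in H3K4me3 width (bp), knockout minus Cas9, by Cas9 width class, for narrow active peaks and narrow peaks without H3K27ac; points are medians with 95% intervals over peaks, and shaded bars hold the middle 50%. From 400 bp upward the members lie above the other class, at -107 bp against -184 bp in the widest class; by score quintile the intervals of both classes overlap.

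The 5 largest losses of width were at members in the lower part of the score list. The largest loss, at chr6:34659501-34660433, left 235 bp in the knockout, against 933 bp in Cas9 cells. The other 4 largest losses, at chr4:63070842-63071815, chr8:87162432-87163350, chr19:61302361-61303253 and chr13:14131306-14132176, left 283, 255, 272 and 251 bp in the knockout, against 974, 919, 893 and 871 bp in Cas9 cells. All 5 stood at or below percentile 47.4 in Cas9 cells, and H3K27ac was called over all 5 in the knockout. The largest gain, at chr2:130100162-130100910, gave 1364 bp in the knockout, against 749 bp in Cas9 cells. The other 4 largest gains, at chr12:56404043-56404222, chr6:120786200-120786794, chr10:83006674-83007153 and chr14:56364549-56365356, gave 722, 1114, 950 and 1262 bp in the knockout, against 180, 595, 480 and 808 bp in Cas9 cells. The percentiles of the 5 gaining members spread from 4.22 to 91.1.

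H3K27ac peaks over the members moved the other way in width, in a share near that of all Cas9 H3K27ac peaks. The 4176 Cas9 H3K27ac peaks over members that had a single knockout partner measured a median of 409 bp (403 to 416) in the knockout and 369 bp (363 to 374) in Cas9 cells. The median change was 22 bp (19 to 25), and 38.6% were narrower in the knockout, against 38.9% of all Cas9 H3K27ac peaks with a partner. Their median percentile was 60.2 in the knockout list and 52.3 in the Cas9 list, and these lists differ in length, with 10112 and 7951 peaks. Both widths could be compared over 3680 members. H3K4me3 was narrower and H3K27ac wider in the knockout at 1556 of them (42.3%), both marks were narrower at 28.6% and both wider at 19.0%. The changes in width of the 2 marks were almost unrelated (rho 0.116). The joint shares over all peaks are not given here, so no opposite movement of the 2 marks at single members is read from them.

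Ranks were largely kept. The H3K4me3 scores of the 4062 members with a single partner had a rho of 0.810 between knockout and Cas9 cells, and their widths 0.734. For H3K27ac scores rho was 0.801 over 4212 members. These points share the peak caller and the neighbourhood of each peak. The median H3K4me3 percentile was 64.5 in the knockout and 66.5 in Cas9 cells, with a median change of -1.75 points (-2.19 to -1.44), against -0.813 points (-1.07 to -0.621) over all 10175 peaks with a partner. A fall of over 20 points was seen at 396 members (9.75%), against 8.68% of all such peaks, and a rise of over 20 points at 191 (4.70%), against 7.24%. Falls were less common among broad active peaks (4.03%, 3.17 to 5.11) and slightly more common among narrow peaks without H3K27ac (11.9%, 10.8 to 13.1, against 8.87 to 10.7 for the members). A peak below percentile 20 cannot fall by over 20 points, and peaks near the top cannot rise by as much. The classes started at different ranks, and these shares were not matched for rank.

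Nearly all narrow active promoters of the tumour cells lay under islands of the Gfi1 antibody in neurospheres, which is a comparison across different cells. In Suz12F2 neurospheres an island covered part of 4704 of the 4759 members, or 98.8% (98.5 to 99.1), against 97.5% of all Cas9 tumour H3K4me3 peaks. In Cas9 neurospheres it was 4022 members, or 84.5% (83.5 to 85.5), against 86.4% of all peaks. Both lists covered 4014 members, or 84.3%, against 86% of all peaks. These shares lay near the background, and the islands covered 294 Mb in Suz12F2 and 368 Mb in Cas9 neurospheres.

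The list that covered less of the genome thus overlapped more of the members. Islands of Suz12F2 neurospheres alone lay over 690 members (14.5%), against 11.5% of all Cas9 tumour H3K4me3 peaks. Islands of Cas9 neurospheres alone lay over 8 members (0.168%), against 0.432% of all peaks. Of the Suz12F2 islands, 4233 of 67079 (6.31%) overlapped a member, and these ranked at a median percentile of 70.4 in their list. Of the islands in Cas9 neurospheres, 3557 of 63177 (5.63%) did, at a median percentile of 52.7. The islands over members were shorter than those over none, at 2400 against 3000 bp in Suz12F2 and 3000 against 4000 bp in Cas9 neurospheres. No Gfi1 antibody island lay over 47 members (0.988%), against 2.1% of all peaks. Highest by score among these, and picked after the values were seen, was chr3:105603448-105604302, with H3K4me3 over 810 bp in the knockout and 855 bp in Cas9 cells.

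Broad active peaks lay under Gfi1 antibody islands of Cas9 neurospheres more often than the members, at 92.2% (91.0 to 93.2). Counted by the midpoint of the peak, the shares were 84.0% (82.9 to 85.0) of the members and 90.7% (89.4 to 91.8) of broad active peaks. In the highest score quintile the shares were 84.7% (82.6 to 86.5) and 92.5% (91.0 to 93.8). Members under such an island carried both marks in the knockout at 89.1% (88.1 to 90.0), and the 737 members under none at 88.2% (85.7 to 90.3). These intervals overlap.

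Cas9 antibody islands of Suz12F2 and U6 neurospheres overlapped the members less often than they overlapped all H3K4me3 peaks. In Suz12F2 neurospheres they lay over 224 members, or 4.71% (4.14 to 5.35), against 6.39% of all peaks. Among the members with no other H3K4me3 peak within 2 kb the share was 2.93% (2.36 to 3.62). In Suz12F1 neurospheres it was 2 members, or 0.042%, against 0.0557%. In U6 neurospheres it was 519 members, or 10.9% (10.1 to 11.8), against 13.2%. Narrow peaks without H3K27ac lay lower than the members. By the midpoint their shares were 3.2% (2.76 to 3.71) in Suz12F2 and 6.21% (5.59 to 6.89) in U6 neurospheres. For the members the midpoint shares were 4.43% (3.88 to 5.06) and 9.96% (9.14 to 10.8). Islands of both Suz12F2 and U6 neurospheres lay over 2.12% of the members, against 3.18% of all peaks, and islands of any of these lists over 644 members (13.5%), against 16.5%.

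Broad active peaks lay under Cas9 antibody islands more often than the members did. They lay under islands of Suz12F2 neurospheres at 12.5% (11.2 to 14.0) and of U6 neurospheres at 23.2% (21.5 to 25). In the highest score quintile the U6 shares were 15.7% (13.8 to 17.8) of the members and 27.1% (24.9 to 29.5) of broad active peaks. With the midpoint of the peak they were 9.96% (9.14 to 10.8) of all members and 21.7% (20 to 23.4) of all broad active peaks. The 5 highest-scoring members under a Cas9 antibody island were the chromosome 4 and chromosome 1 members named above, chr5:139626171-139626872, chr11:119464324-119465215 and chr8:112392412-112393370. An island of U6 neurospheres lay over the first 4 and one of Suz12F2 neurospheres over the last.

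The members under U6 islands were among the better ranked. Their median H3K4me3 percentile was 73.7 (70.3 to 75.4), against 64.5 (62.7 to 64.5) for those under none. H3K27ac was called in the knockout over 96.3% (94.4 to 97.6) of the 519 members under a U6 island and 91.2% (90.3 to 92.0) of the other 4240. For H3K4me3 the shares were 95.4% (93.2 to 96.9) and 95.7% (95.1 to 96.3). How much of the H3K27ac difference went with the higher rank was not tested.

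**Figure D5:**
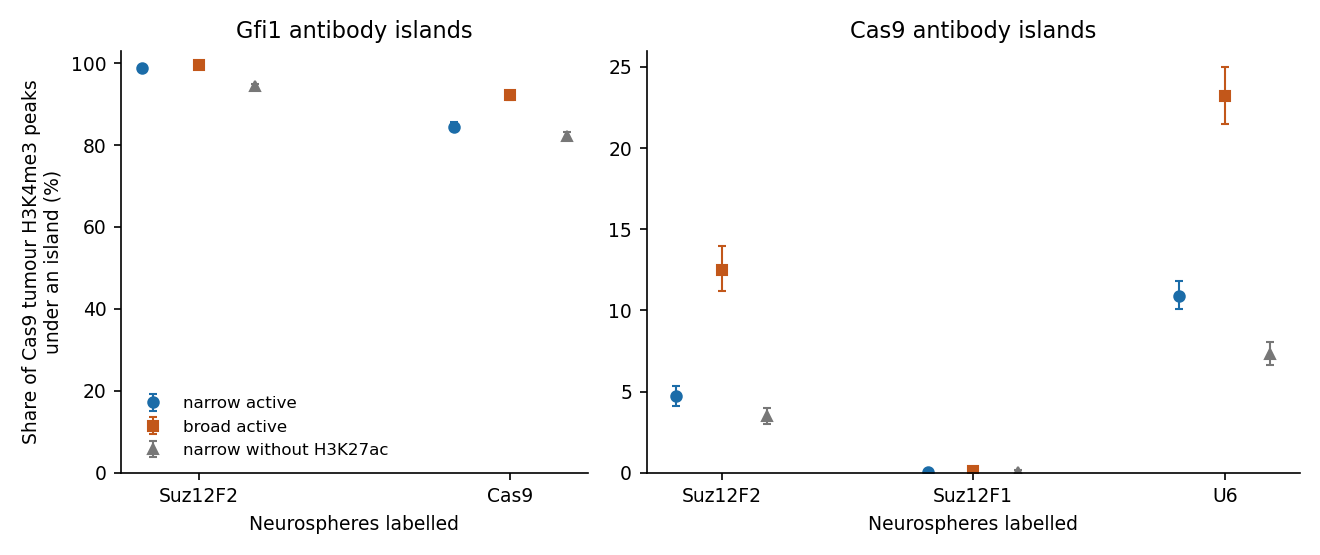
Share of Cas9 tumour H3K4me3 peaks (%) under islands of the Gfi1 antibody (left) and the Cas9 antibody (right) in neurospheres, for narrow active, broad active and narrow peaks without H3K27ac; points are shares, bars Wilson 95% intervals for counting error, and the axes differ in range. The members reach 98.8% and 84.5% with the Gfi1 antibody and lie below broad active peaks with the Cas9 antibody, at 10.9% against 23.2% in U6 neurospheres.

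The members on chromosome X stood apart, a split made after the values of each chromosome were seen. On the single autosomes, both marks were called in the knockout over 84.2% to 93.4% of the members. On chromosome X it was 62 of 89 members, or 69.7% (59.5 to 78.2), against 29.9% of all Cas9 H3K4me3 peaks there, while over all autosomes it was 89.3% (88.4 to 90.2) of the members. H3K4me3 was called over 80.9% (71.5 to 87.7) of the X members, against 70.4% of all Cas9 peaks on X, and H3K27ac over 83.1% (74.0 to 89.5), against 35%. The X members ranked low in Cas9 cells, at a median percentile of 34.5 (29.3 to 38.9), against 64.5 on the autosomes. Within the lower 50% of scores, which held 80 of the 89, both marks were called over 67.5% (56.6 to 76.8) on X and 74.5% (72.1 to 76.8) on the autosomes, and these intervals overlap.

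Gfi1 antibody islands of Cas9 neurospheres were also less common over the X members. Islands of Suz12F2 neurospheres lay over 97.8% (92.2 to 99.4) of the X members, against 89.2% of all Cas9 tumour H3K4me3 peaks on X, and over 98.9% of the autosomal members. Islands of Cas9 neurospheres lay over 44.9% (35.0 to 55.3) of the X members, against 42.2% of all peaks on X, and over 85.3% (84.2 to 86.3) of the autosomal members. The low share in Cas9 neurospheres was thus shared by the other H3K4me3 peaks of the chromosome. Of all islands in these lists, 0.953% lay on X in Suz12F2 and 0.423% in Cas9 neurospheres. The copy number and the number of X chromosomes in each culture were not analysed here.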

How the data were processed

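The 11 analysed files are ChIP-seq region lists, 1 per library, called by the authors. The deposited lists give a score per region whose meaning they do not state. Per the submitters' processing notes, the tools were SICER 1.1, R 2.14.0, SAMtools, Picard and BWA 0.5.9-r26 and the build was mm9, with no roles given. Per the list names, islands had a window of 200 bp, a gap of 600 bp and a false discovery rate of 0.00001, and 1 bp was added to their ends. Which caller made the H3K4me3 and H3K27ac peaks is not given in the sources used. Of the numbered peaks, 467 (knockout) and 486 (Cas9) of the H3K4me3 lists and 363 and 375 of the H3K27ac lists were not analysed here. The same held for 105 (knockout) and 71 (Cas9) of the numbered H3K27me3 islands. The effect on membership and overlaps is not known. The 3 inputs were not used here.

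Groups came from titles and genotype labels. Overlap meant 1 shared bp. Overlaps came from numpy 2.4.6 and scipy 1.17.1 under Python 3.11.15, with figures by matplotlib 3.10.9. They were checked on simulated data, and those of the Cas9 H3K4me3 peaks with the other 10 lists differed from bedtools 2.31.1 at 0 peaks. Members, classes and named regions were chosen with earlier results of these data known. Regions named were the 5 highest by H3K4me3 score among all members, without knockout H3K4me3, with knockout H3K4me3 but no H3K27ac and under a Cas9 antibody island, the 5 largest gains and losses of width, and 3 on each side of the limit. Exceptions are stated. The midpoint overlap and the split by chromosome X were added after seeing the data.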

Additional observations from a re-analysis of the deposited data

How the results depend on the processing

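Of 87 alternative values for 11 results, 46 stayed within the 95% interval of the reported value and 41 left it. A turn of direction was looked for only in the median width change, the single result with a sign, and 0 were found. The other results are shares, for which a turn was not looked for. Over the alternatives the share narrower in the knockout ran from 66.6% to 72.9%. The order of members and broad active peaks at matched rank did turn with the midpoint, as given above. With 50% of a member covered, the knockout shares were 91.4% (H3K4me3), 69.2% (H3K27ac) and 65.0% (both), and 9.96% lay under Cas9 antibody islands of U6 neurospheres. The midpoint of the member gave 92.4% (H3K4me3), 81.7% (H3K27ac), 77.6% (both) and, for U6, 9.96%. For members under 750 bp the 3 mark shares were 93.4%, 88.9%, 84.7% and, for U6, 9.96%, with 83.4% under Gfi1 antibody islands of Cas9 neurospheres, a width change of -47 bp and 66.6% narrower. In the upper 50% of scores the mark shares were 99.97%, 95.1%, 95.1% and, for U6, 12.1%, with 99.5% under Gfi1 antibody islands of Suz12F2 neurospheres. Knockout lists trimmed to the Cas9 numbers gave 83.2% for H3K27ac and 80.9% for both marks. Without members under a Cas9 antibody island, 83.1% lay under Gfi1 antibody islands of Cas9 neurospheres. Members with no other H3K4me3 peak within 2 kb gave 97.9%, 94.3% and 92.7% for the marks, 80.7% for Gfi1 in Cas9 neurospheres, 8.68% for U6, 2.93% for the Cas9 antibody in Suz12F2 neurospheres and 0.0723% under knockout H3K27me3. Knockout-chosen members looked up in Cas9 lists gave 97.4%, 73.8% and 73.3% for the marks, 86.8% and 99.1% for Gfi1 in Cas9 and Suz12F2 neurospheres, 13.0% for U6, 5.60% for the Cas9 antibody in Suz12F2 neurospheres, 7.98% for H3K27me3 and -77 bp. Summing all partners gave -59 bp and 67.5% narrower. The causes were not tested. No paired analysis was possible because each group has 1 library. Depth is unknown.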
